A study of Rattus norvegicus with 13 samples.

Results

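The 9 genes described here belong to glucocorticoid signalling and were followed in bulk RNA-seq of rat hearts: the receptors Nr3c1 and Nr3c2, the hormone-activating enzyme Hsd11b1, and 6 genes that glucocorticoids are known to induce (Fkbp5, Tsc22d3, Zbtb16, Klf9, Sgk1 and Pck1). They were chosen by name, with earlier results of these data known. All 9 were listed in each table, out of 41182 names listed in any table. Expected counts were available for 13 hearts. WT hearts had no treatment, and ST hearts, labelled sonogenetic, had received AAV2/9-cTnT-MscL-G22S-mCherry, a virus that carries the mechanosensitive bacterial channel variant MscL-G22S with the fluorescent protein mCherry behind the cardiac troponin T promoter, which drives expression in cardiomyocytes. Each group held 2 hearts at 2 months (WT and ST) and 3 hearts at 6 months (WT and ST). The 8-month group held 3 ST hearts, and no WT hearts of that month were analysed. The labels do not say whether the months are age or time since the virus, whether ultrasound was given, what time of day hearts were taken, or what the WT hearts' vehicle was, if any. WT hearts thus differ from ST hearts in the virus as a whole, not in the channel alone.

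Glucocorticoids cross the cell membrane and bind the glucocorticoid receptor, encoded by Nr3c1, which chaperones of the Hsp90 machinery hold in the cytoplasm. The bound receptor enters the nucleus and raises or lowers the transcription of target genes. The mineralocorticoid receptor, encoded by Nr3c2, binds the same hormones as well as aldosterone, and heart muscle cells carry both receptors. No hormone level is among the measurements used here.

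Library totals were 6.54 to 11.3 M counts at 2 months, 6.72 to 8.49 M at 6 months and 4.70 to 5.57 M at 8 months. Levels are given as CPM (counts scaled to a common library size) with TMM scaling, done within the 2-month table and, separately, across the tables of 6 and 8 months, so that levels at 2 months are not compared with later ones. The channel transcript had 0 counts in the 5 WT libraries and at least 94 in each ST library. It was lower in ST replicate 2 of 6 months (90.4 CPM of the library total) than in replicates 1 and 3 (197 and 209 CPM). That library also stood apart over all genes, with a chi-square per degree of freedom of 6.89 and 8.67 against the other ST hearts of 6 months, which differed from each other by 1.93. WT replicate 1 of 6 months stood apart in the same way (8.49 and 7.51, against 2.13 between the other two). The value was 12.1 between the 2 ST hearts and 7.68 between the 2 WT hearts of 2 months, where a pair alone does not show which heart differs. It was 2.12 to 2.31 among the hearts of 8 months. Markers of heart muscle summed to between 67280 and 79773 CPM in the libraries of 2 months, where 9 of 10 were listed. In the libraries of 6 and 8 months the 10 markers summed to between 104589 and 120625 CPM. The RNA is of whole tissue, so fewer cells of a type and less RNA per cell cannot be told apart. The labels call the samples biological replicates without naming animals, and p-values measure the spread between these samples.

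At 2 months, 3 of the 8 genes tested rose in ST hearts and 0 fell, where 4.8% of all 12121 genes tested passed (2.7% higher, 2.1% lower). At an unadjusted p under 0.05, 4 were higher and 0 lower, and DESeq2 called 3 higher and 0 lower. The genes that rose were Fkbp5, Tsc22d3 and Zbtb16. At 6 months, 3 of 9 rose (Fkbp5, Sgk1 and Pck1) and 3 fell (Klf9, Nr3c1 and Nr3c2), where 40% of 13253 genes passed (19.9% higher, 20.1% lower). From ST hearts of 6 months to those of 8 months, 4 of 9 fell (Fkbp5, Tsc22d3, Zbtb16 and Pck1) and 2 rose (Nr3c1 and Nr3c2), where 39.6% of 12931 genes passed (19.1% higher, 20.5% lower). Against WT hearts of 6 months, ST hearts of 8 months had 4 of 8 genes lower (Fkbp5, Tsc22d3, Zbtb16 and Klf9) and 1 higher (Sgk1), where 33.9% of 13095 genes passed (17.8% higher, 16.1% lower). At 6 months and later, calls were thus common among all genes, and a call of a single gene there is an ordinary event. Pck1 passed the filter on low counts only where ST hearts of 6 months took part, so its place in these counts depends on that filter. These calls are of edgeR's quasi-likelihood test with Benjamini-Hochberg adjustment over all genes and a threshold of 0.05, as are the adjusted p-values that follow. The comparisons share libraries: the ST hearts of 6 months, the WT hearts of 6 months and the ST hearts of 8 months each enter a pair of them, and the comparison of effects between months reuses the hearts of 2 and 6 months. The groups of a comparison did not overlap for 48.9% of all genes tested at 2 months, 51.7% at 6 months, 51% at 8 against 6 months and 46.8% at 8 months against WT hearts of 6 months, so that a lack of overlap alone is common. Time and table cannot be told apart at 8 against 6 months, and against WT hearts of 6 months the virus is a further difference.

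**Figure D1:**
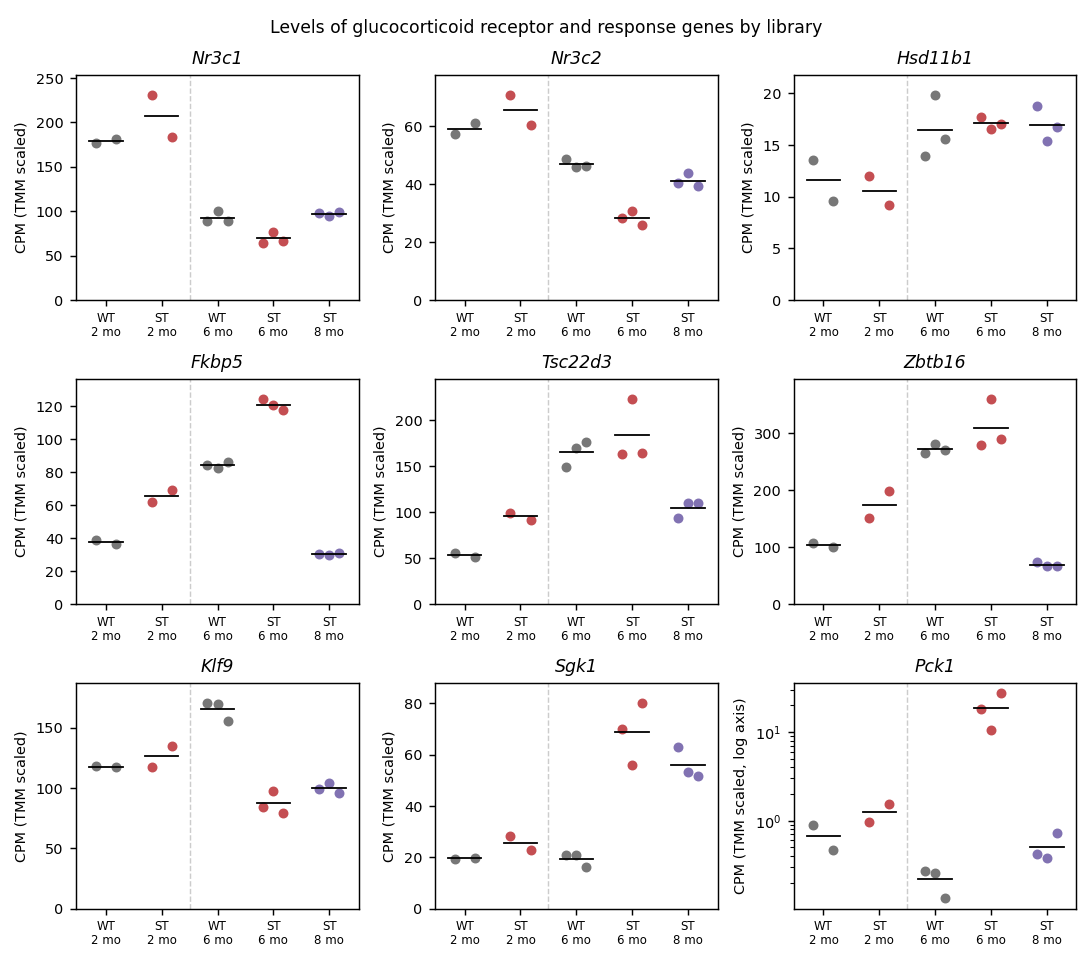
Level of each of the 9 genes in each of the 13 libraries, in TMM-scaled CPM (linear axes from 0, log axis for Pck1), with WT in grey, ST of 2 and 6 months in red and ST of 8 months in purple; points are libraries and bars are group means. The dashed line parts the 2-month table, which was scaled separately. Fkbp5 lies between 118 and 124 CPM in ST hearts of 6 months and between 29.9 and 30.9 CPM at 8 months.

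**Figure D2:**
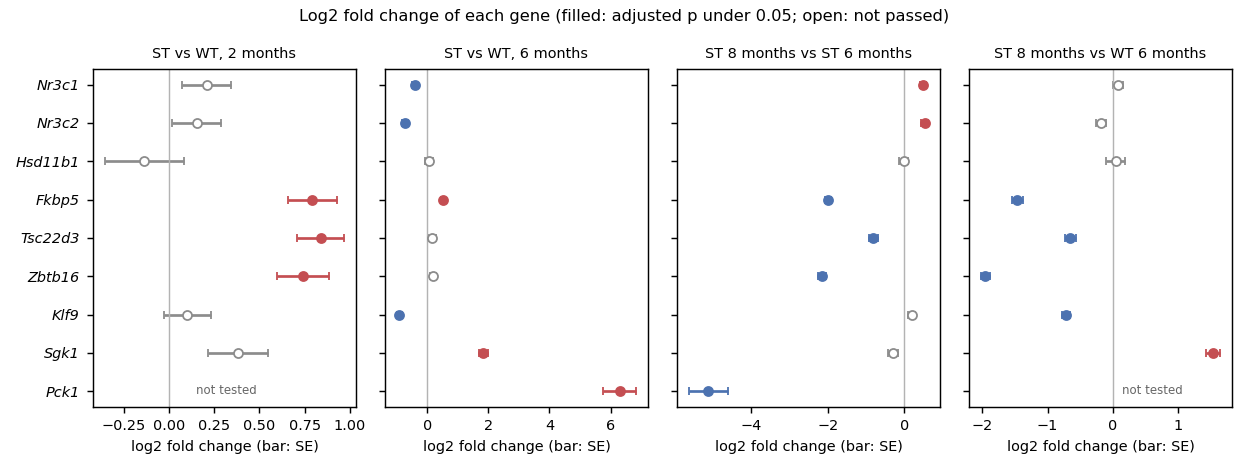
Log2 fold change (horizontal axis, a different range in each panel) of the 9 genes in the 4 comparisons, with its standard error as a bar; filled points passed an adjusted p of 0.05 (red higher, blue lower) and open points did not. Fkbp5 lies right of 0 in both comparisons of ST with WT of the same month and left of 0 in both comparisons of 8 months.

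Both receptors were lower in ST hearts at 6 months and higher again at 8 months. Nr3c1, the glucocorticoid receptor, stood at 88.9, 100 and 88.9 CPM in WT hearts of 6 months, at 64.7, 77.0 and 66.4 CPM in ST hearts of 6 months and at 97.7, 94.7 and 99.5 CPM in those of 8 months. The ST hearts of 6 months lay below both other groups without overlap, and the WT hearts and the ST hearts of 8 months overlapped. The log2 fold change of ST against WT was -0.41 (SE 0.0864, adjusted p = 0.0028), and that of 8 against 6 months was 0.48 (SE 0.0793, adjusted p = 0.0004). Against WT hearts of 6 months the ST hearts of 8 months differed by 0.08 (SE 0.0726, adjusted p = 0.41). At 2 months the values were 177 and 182 CPM in WT and 231 and 184 CPM in ST hearts, a log2 fold change of 0.21 (SE 0.137, adjusted p = 0.45) that passed only without ST replicate 2 (0.36, adjusted p = 0.039).

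Nr3c2, the mineralocorticoid receptor, had 48.7, 46.1 and 46.4 CPM in WT and 28.4, 30.8 and 26.0 CPM in ST hearts of 6 months, and 40.4, 43.8 and 39.6 CPM at 8 months. The 3 groups did not overlap, with WT highest and ST of 6 months lowest. It was lower in ST than WT at 6 months by a log2 fold change of -0.72 (SE 0.0886, adjusted p = 6.2e-05) and rose by 0.53 from 6 to 8 months (SE 0.0947, adjusted p = 0.00071). Against WT hearts of 6 months the value at 8 months was -0.18 (SE 0.0838, adjusted p = 0.11), and it passed with scaling by library totals (-0.24, adjusted p = 0.037). At 2 months Nr3c2 had 57.3 and 61.1 CPM in WT and 70.8 and 60.5 CPM in ST hearts, which overlapped.

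Hsd11b1, the enzyme that turns inactive 11-keto steroids into active glucocorticoids inside the cell, did not pass in any comparison. Its libraries ran from 9.18 to 13.6 CPM at 2 months and from 13.9 to 19.8 CPM later, and the groups overlapped in every comparison. Its log2 fold changes were -0.14 (SE 0.219) at 2 months, 0.05 (SE 0.137) for ST against WT at 6 months, -0.01 (SE 0.118) at 8 against 6 months and 0.05 (SE 0.145) against WT hearts of 6 months.

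Fkbp5, Tsc22d3 and Zbtb16 are induced directly by the hormone-bound glucocorticoid receptor in many tissues. Promoter windows from RefSeq (rat assembly GRCr8), the 250 bases before a transcription start, were found for 6 of the 9 genes in 11 windows, with none for Zbtb16, Nr3c2 and Hsd11b1. The windows of Fkbp5 and of the Tsc22d3 start nearest the gene's 3′ end are shown, since these genes rose at 2 months, and hold none of the motifs searched.
Fkbp5, chr20:6543556-6543805, minus strand: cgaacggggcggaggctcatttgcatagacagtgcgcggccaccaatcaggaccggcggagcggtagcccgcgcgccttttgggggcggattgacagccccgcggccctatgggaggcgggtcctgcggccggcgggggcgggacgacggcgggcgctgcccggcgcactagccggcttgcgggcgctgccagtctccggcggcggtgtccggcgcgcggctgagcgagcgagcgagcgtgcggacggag
Tsc22d3, chrX:109010035-109010284, minus strand: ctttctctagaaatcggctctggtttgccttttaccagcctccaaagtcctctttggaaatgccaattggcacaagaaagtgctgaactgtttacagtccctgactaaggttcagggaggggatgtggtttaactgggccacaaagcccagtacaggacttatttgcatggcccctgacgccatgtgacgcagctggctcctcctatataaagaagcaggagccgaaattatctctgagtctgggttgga
Both strands were searched for the palindromic glucocorticoid response element, AGAACA and TGTTCT with 3 bases of any kind between them (in 0.012% of 33469 RefSeq windows of this length), for AGAACA alone (17.5%, and part of the palindrome), the cyclic AMP response element TGACGTCA (1.59%), its form TTACGTCA (0.75%, chosen because the Pck1 promoter is known for it) and the E-box CACGTG (5.59%). The 11 windows held 1 match in all, TTACGTCA in Pck1. Receptor sites of these genes are known to lie far from the start as well, and such regions were not searched.

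Fkbp5 encodes a co-chaperone that lowers the receptor's affinity for hormone. At 2 months its level was 39.0 and 36.5 CPM in WT and 62.2 and 69.1 CPM in ST hearts. At 6 months it was 84.5, 82.8 and 86.1 CPM in WT and 124, 121 and 118 CPM in ST hearts. The ST hearts of 8 months had 30.5, 29.9 and 30.9 CPM. ST lay above WT without overlap in both months, and the hearts of 8 months lay below both groups of 6 months. The log2 fold change of ST against WT was 0.79 at 2 months (SE 0.135, adjusted p = 0.0020) and 0.52 at 6 months (SE 0.0643, adjusted p = 6.5e-05). It was -1.99 at 8 against 6 months (SE 0.0722, adjusted p = 7.6e-10), and -1.46 against WT hearts of 6 months (SE 0.0788, adjusted p = 1.6e-09). The effect of ST at 6 months was smaller than at 2 months by 0.28, which did not pass (adjusted p = 0.12).

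Tsc22d3 encodes GILZ, a mediator of the anti-inflammatory action of glucocorticoids. It had 55.6 and 51.1 CPM in WT and 99.4 and 91.5 CPM in ST hearts of 2 months, a log2 fold change of 0.84 (SE 0.131, adjusted p = 0.0010). At 6 months WT hearts had 149, 170 and 176 CPM and ST hearts 164, 223 and 164 CPM. The high ST value is replicate 2, and the groups overlapped (0.16, SE 0.116, adjusted p = 0.31). Without that library the log2 fold change was -0.01. At 8 months the level was 93.5, 110 and 110 CPM, below every heart of 6 months, with a log2 fold change of -0.82 against ST (SE 0.115, adjusted p = 0.00012) and -0.65 against WT hearts (SE 0.0833, adjusted p = 2.1e-05).

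Zbtb16 encodes the zinc finger repressor PLZF. Its 2-month levels were 108 and 101 CPM in WT and 151 and 198 CPM in ST hearts, without overlap. The log2 fold change was 0.74 (SE 0.144, adjusted p = 0.0054), and it missed the threshold without WT replicate 2 (adjusted p = 0.059). At 6 months WT hearts had 265, 282 and 270 CPM and ST hearts 279, 360 and 291 CPM, again with replicate 2 highest, and the difference of 0.19 did not pass (SE 0.0914, adjusted p = 0.12). At 8 months the level was 73.8, 68.0 and 67.2 CPM. That was 4.47-fold lower than in ST hearts of 6 months (log2 fold change -2.16, SE 0.0981, adjusted p = 5.5e-09) and 3.88-fold lower than in WT hearts of 6 months (log2 fold change -1.96, SE 0.0704, adjusted p = 1.1e-11).

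Klf9, a Krüppel-like transcription factor induced by glucocorticoids and also under circadian control, moved the other way at 6 months. WT hearts had 170, 170 and 156 CPM, ST hearts of 6 months 84.5, 97.5 and 79.6 CPM, and ST hearts of 8 months 99.6, 104 and 95.6 CPM. All 6 ST values lay below the 3 WT values. The log2 fold change was -0.92 at 6 months (SE 0.0829, adjusted p = 5.6e-06) and -0.72 at 8 months against the same WT hearts (SE 0.0686, adjusted p = 9.1e-07). Between 6 and 8 months it was 0.19 (SE 0.0836, adjusted p = 0.087), which passed without ST replicate 2 of 6 months (0.28, adjusted p = 0.0048). At 2 months the level was 118 and 117 CPM in WT and 118 and 135 CPM in ST hearts (0.10, SE 0.129, adjusted p = 0.73).

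Sgk1 encodes a kinase that both corticosteroid receptors induce and that acts on ion channels and transporters. It had 21.0, 20.7 and 16.1 CPM in WT and 70.1, 56.0 and 80.0 CPM in ST hearts of 6 months, and 63.0, 53.4 and 51.7 CPM at 8 months. Every ST heart of 6 and 8 months lay above the WT hearts. It was 3.56-fold higher in ST than WT at 6 months (log2 fold change 1.83, SE 0.141, adjusted p = 1.5e-06), and 2.92-fold higher at 8 months than in those WT hearts (1.54, SE 0.113, adjusted p = 3.8e-08). From 6 to 8 months the change was -0.30 (SE 0.120, adjusted p = 0.066), with overlap. It passed without ST replicate 2 of 6 months (-0.43, adjusted p = 0.00096), without ST replicate 1 of 8 months (-0.39, adjusted p = 0.044) and with no filter on low counts (-0.32, adjusted p = 0.0020). At 2 months WT hearts had 19.5 and 19.9 CPM and ST hearts 28.3 and 22.8 CPM and did not overlap. The log2 fold change of 0.38 did not pass (SE 0.165, adjusted p = 0.22), except without ST replicate 2 (0.52, adjusted p = 0.023).

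Pck1 encodes the cytosolic phosphoenolpyruvate carboxykinase, the regulated enzyme of gluconeogenesis in liver and kidney and of glycerol synthesis in fat. Its promoter window is shown with the TTACGTCA match in capitals, which starts 93 bases before the transcription start.
Pck1, chr3:182348322-182348571, plus strand: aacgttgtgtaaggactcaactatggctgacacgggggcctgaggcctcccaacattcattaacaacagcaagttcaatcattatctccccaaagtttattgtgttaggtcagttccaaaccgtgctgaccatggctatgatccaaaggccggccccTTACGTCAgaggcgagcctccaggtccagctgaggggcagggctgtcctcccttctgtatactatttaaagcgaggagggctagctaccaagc
Pck1 had 2, 2 and 1 counts in WT hearts and 117, 87 and 210 counts in ST hearts of 6 months, and 2, 2 and 4 counts at 8 months. Scaled for depth, the summed counts of ST hearts of 6 months were 83.9 times those of WT hearts (95% exact interval 35.7 to 260) and 36.1 times those of 8 months (18.2 to 84.3). Those intervals cover counting error only. The fitted log2 fold changes were 6.30 (SE 0.546, adjusted p = 4e-06) and -5.13 (SE 0.511, adjusted p = 6.7e-06). At 2 months it had 8 and 3 counts in WT and 11 and 13 in ST hearts, a ratio of 1.70 (0.80 to 3.83), and between 8 months and WT hearts of 6 months the ratio was 2.32 (0.67 to 9.02). It was too low for the test in both of these comparisons.

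Markers of fat, liver and kidney, tissues that express Pck1 strongly, were read in the same libraries. Of the 9 fat cell markers 3 had 0 counts in the ST hearts of 6 months (Adipoq, Cidec and Ucp1), against 5 in the WT hearts of 6 months (these and Plin1 and Retn). Plin1 and Retn had 1 count each in ST hearts, and the 9 markers summed to between 56.1 and 59.6 CPM there, against 54.6 to 77.7 CPM in WT hearts, most of it Cidea. Of the 5 liver markers 3 had 0 counts in ST hearts (Alb, Fgb and Tat) and 2 in WT hearts, with sums of 0.31 to 0.74 and 0.13 to 0.80 CPM. All 3 kidney markers had 0 counts in ST hearts and 2 of them in WT hearts. The part of other tissues in the level of Pck1 was not tested. Among ST hearts of 6 months, Sgk1, Pck1 and Hsd11b1 were lowest in replicate 2. Tsc22d3, Zbtb16, Klf9, Nr3c1 and Nr3c2 were highest there, and Fkbp5 lay in the middle. Replicate 2 is also the library with the least channel transcript of that group. The part of that library's difference in the results was not tested beyond leaving it out, which left the calls of Sgk1 and Pck1 against WT in place.

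The effect of ST against WT was compared between months in 1 fit. It differed for 7 of the 9 genes, where 22.2% of 12658 genes passed (10.2% higher, 12% lower). It was higher at 6 than at 2 months for Sgk1 (difference of log2 fold changes 1.44, SE 0.228, adjusted p = 0.00036) and Pck1 (5.52, SE 1.18, adjusted p = 0.0035), and lower for Tsc22d3, Zbtb16, Klf9, Nr3c1 and Nr3c2, by -0.56 to -1.03. Fkbp5 and Hsd11b1 did not pass.

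Among 42 other genes that glucocorticoids are known to induce, 10 of 37 tested rose at 2 months and 0 fell (16 and 0 at an unadjusted p under 0.05, and 9 and 0 in DESeq2). The median log2 fold change was 0.33, beside -4e-04 over all genes. This list and those that follow were chosen with earlier results of these data known, so their counts and medians are a description only. The share called over all genes was 4.8% at 2 months and 40% at 6 months. It was 39.6% at 8 against 6 months and 33.9% at 8 months against WT hearts of 6 months. Irs2, an adaptor of the insulin receptor, had 46.0 and 47.6 CPM in WT and 233 and 228 CPM in ST hearts of 2 months (log2 fold change 2.30, SE 0.133, adjusted p = 1.7e-08). Pdk4, a kinase that restrains pyruvate oxidation, had 101 and 103 CPM against 354 and 416 CPM (1.92, SE 0.136, adjusted p = 2.6e-07). The transcription factors Cebpb and Bcl6 rose by 1.17 and 1.21. Neither Irs2 nor Pdk4 had any overlap between the groups.

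At 6 months 22 of 39 tested genes of that list were higher and 8 lower in ST hearts, with a median of 0.54, beside -0.0016 over all genes. Irs2 rose by 3.82 (SE 0.0756, adjusted p = 2.6e-11), Pdk4 by 2.98 (SE 0.127, adjusted p = 9.4e-09), the cell cycle inhibitor Cdkn1a by 2.57 and the stress gene Gadd45g by 2.55 on the log2 scale. Of the 10 genes higher at 2 months, 7 were higher at 6 months (70% of the 10 and 31.8% of the 22). The transcription factor Klf15 and the stress-induced Sesn1, named here because they were the 2 that turned, were higher at 2 months (0.65 and 0.61) and lower at 6 months (-0.78 and -0.93).

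From 6 to 8 months in ST hearts, 25 of 39 fell and 7 rose, with a median of -0.52 beside 0.02 over all genes. The log2 fold changes were -2.19 for Irs2, -2.25 for Cebpb, -1.89 for Gadd45g and -2.07 for Bcl6. Against WT hearts of 6 months, 11 of 39 were higher at 8 months and 15 lower, with a median of -0.13 beside -0.0081 over all genes. Irs2 (1.64), the lipase inhibitor Angptl4 (2.37), Pdk4 (1.44) and the NF-kappaB inhibitor Nfkbia (1.01) were among the 11 that were higher. Cebpb (-0.99), Bcl6 (-0.94) and Sesn1 (-0.65) were among the 15 that were lower. Fkbp5, Tsc22d3 and Zbtb16, outside this list, were lower as well.

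**Figure D3:**
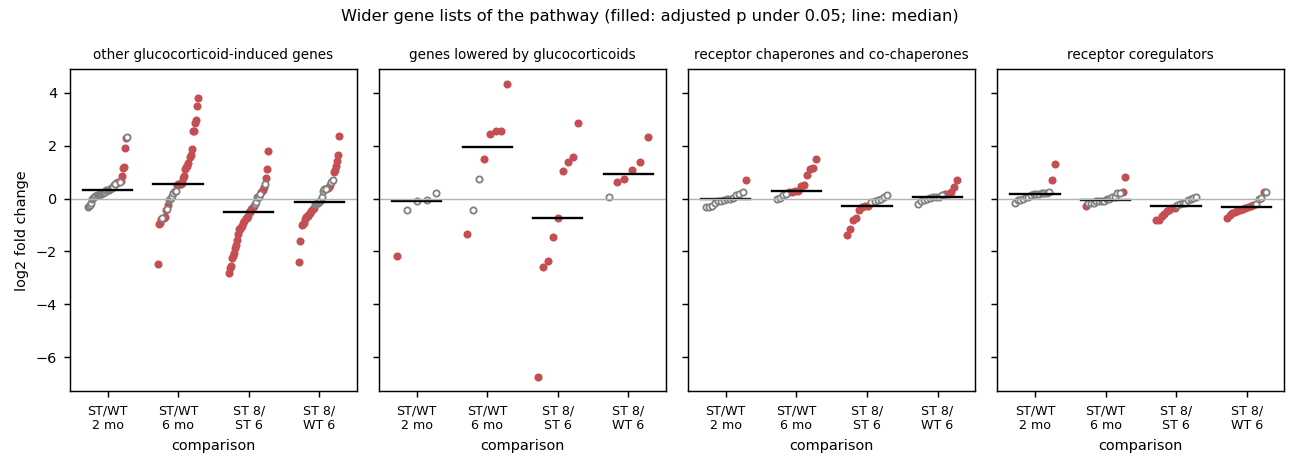
Log2 fold change (vertical axis) of each tested gene of 4 lists in the 4 comparisons, with red filled points past an adjusted p of 0.05, open points not past it and bars for the median. The median of the other glucocorticoid-induced genes is 0.54 at 6 months and -0.52 at 8 against 6 months; the lowest point of the lists is Il6, which had 0 counts at 8 months, so that its fitted value is no estimate of size.

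Genes that glucocorticoids are known to lower, mostly cytokines and adhesion molecules, were rarely detected: 5 of 20 could be tested at 2 months and 8 at 6 months. At 2 months 0 rose and 1 fell (0 and 1 at an unadjusted p under 0.05 and in DESeq2), the inducible nitric oxide synthase Nos2 (-2.19, SE 0.416, adjusted p = 0.0047). At 6 months 5 of 8 rose and 1 fell in ST hearts (5 and 0 in DESeq2), with a median of 1.97. Il6, Ccl7 and Cxcl1 passed the filter on low counts only where ST hearts of 6 months took part. This count and median thus depend partly on that filter. The one that fell in edgeR alone was the vasoconstrictor peptide gene Edn1 (-1.33, adjusted p = 0.032), named after its value was seen. From 6 to 8 months 4 of 9 rose and 5 fell (3 and 5 in DESeq2). The adhesion molecule Icam1 had 6.83, 6.05 and 6.27 CPM in WT and 17.0, 18.5 and 17.8 CPM in ST hearts (1.48, SE 0.126, adjusted p = 3.3e-06). The chemokines Ccl2 (2.54) and Ccl7 (2.55) rose as well, and Il6 had 0, 1 and 1 counts in WT and 14, 16 and 17 in ST hearts, with 0 in each heart of 8 months. At 8 months, against WT hearts of 6 months, 5 of 6 were higher and 0 lower (5 and 0 at an unadjusted p under 0.05, 3 and 0 in DESeq2), among them the endothelial adhesion molecule Sele (2.33). Nos2, also higher there, was too low for the test between ST and WT hearts of 6 months.

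Chaperones and co-chaperones of the receptor rose at 6 months in 10 of 14 cases with 0 lower (11 and 0 at an unadjusted p under 0.05, 10 and 0 in DESeq2). Over all genes 19.9% were higher and 20.1% lower in that comparison. Hsp90aa1, the inducible Hsp90, had 313, 287 and 278 CPM in WT and 792, 890 and 802 CPM in ST hearts (1.503, SE 0.0727, adjusted p = 2.7e-08), and the Hsp40 protein Dnaja1 rose by 1.18. From 6 to 8 months 8 of 14 fell and 0 rose (9 and 0 at an unadjusted p under 0.05, 8 and 0 in DESeq2). Of all genes 20.5% fell and 19.1% rose. Against WT hearts of 6 months, 5 of 14 were higher at 8 months and 0 lower (4 and 0 in DESeq2). Among them was Hsp90aa1 (0.69, adjusted p = 8.9e-07), where 17.8% of all genes were higher. At 2 months 1 of 14 rose, Dnajb1 (0.71), and 0 fell (1 each way at an unadjusted p under 0.05, and 0 in DESeq2). These proteins also serve the heat shock response. Of 16 receptor coregulators, 2 were higher and 1 lower at 6 months (2 and 0 in DESeq2). These are 18.8% called, under the 40% of all genes. At 8 months 11 were lower than in WT hearts of 6 months, among them Ep300 (-0.61), and 1 was higher (9 and 1 in DESeq2). Of all genes 16.1% were lower and 17.8% higher there.

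Clock genes moved in the same comparisons, and the time of day at which hearts were taken is not in the labels. Of 19 tested, 1 was higher and 3 lower in ST hearts of 2 months, 7 higher and 8 lower at 6 months, 6 higher and 7 lower at 8 against 6 months, and 4 higher and 12 lower at 8 months against WT hearts of 6 months. In that order these are 21.1%, 78.9%, 68.4% and 84.2% called, beside 4.8%, 40%, 39.6% and 33.9% of all genes. Per2, a clock repressor that is also a glucocorticoid target, had 82.1, 74.6 and 71.7 CPM in WT and 125, 143 and 132 CPM in ST hearts of 6 months, and 36.4, 34.4 and 30.1 CPM at 8 months, the same order of groups as Fkbp5. At 2 months it had 89.0 and 109 CPM in WT and 142 and 145 CPM in ST hearts (0.55, SE 0.134, adjusted p = 0.026). Dbp, a transcription factor driven by the clock, had 211, 213 and 221 CPM in WT and 28.7, 28.5 and 26.5 CPM in ST hearts of 6 months (-2.94, SE 0.0729, adjusted p = 2.1e-10), and 66.2, 71.4 and 63.2 CPM at 8 months. Per1, which glucocorticoids induce, had 117 to 127 CPM in WT and 116 to 121 CPM in ST hearts of 6 months and 77.7 to 86.5 CPM at 8 months. The glucocorticoid hormones themselves follow the day, and Fkbp5, Tsc22d3, Zbtb16, Klf9 and Per1 vary with it in many tissues. The part of the time of day in these results was not tested.

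**Figure D4:**
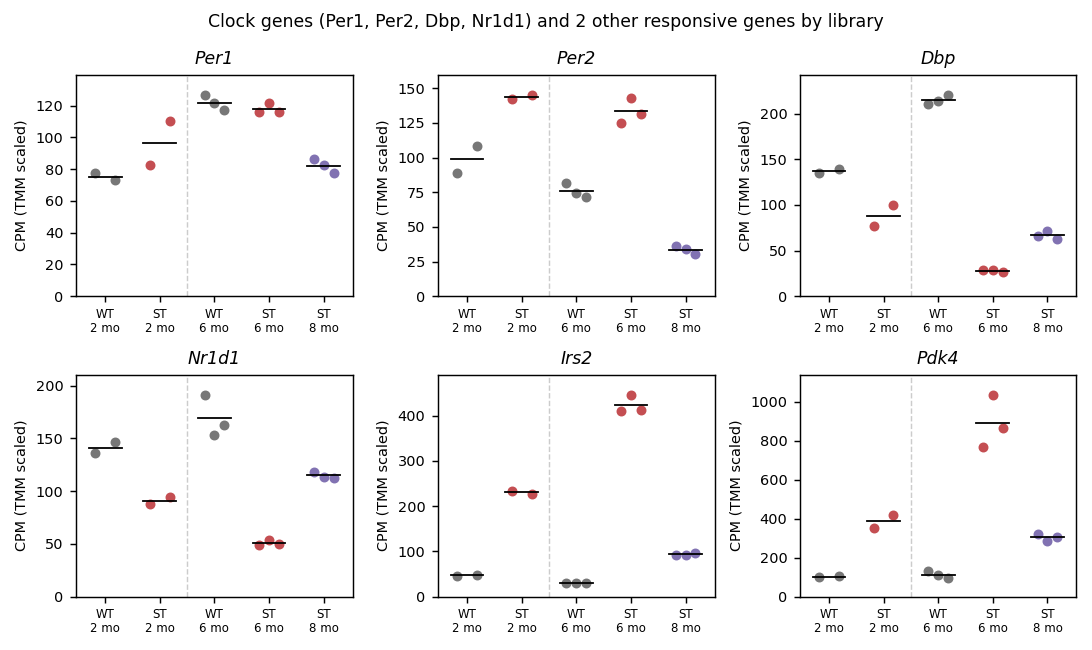
Levels in TMM-scaled CPM (linear axes from 0) of the clock genes Per1, Per2, Dbp and Nr1d1 and of Irs2 and Pdk4 in each library, with groups, colours and bars as in the plot of the 9 genes. Dbp lies between 26.5 and 28.7 CPM in ST hearts of 6 months and between 211 and 221 CPM in WT hearts.

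Of the immediate early genes, which answer many stimuli within minutes, 21 of 22 tested at 6 months were higher in ST hearts and 0 lower (21 and 0 at an unadjusted p under 0.05 and in DESeq2), and at 8 against 6 months 21 of 22 fell and 0 rose (likewise 21 and 0 in both). At 2 months 6 of 21 rose and 0 fell (8 and 1 at an unadjusted p under 0.05, 5 and 0 in DESeq2). Only 18 could be tested at 8 months against WT hearts of 6 months, so some passed the filter only through ST hearts of 6 months. Nr4a1, an orphan nuclear receptor, rose by 2.81 at 2 months and 4.74 at 6 months, and Fos by 5.46 at 6 months, on the log2 scale. Markers of cell types were called in part as well. Over all genes 4.8% were called at 2 months, 40% at 6 months and 39.6% at 8 against 6 months. At 8 months against WT hearts of 6 months the share was 33.9%. Heart muscle markers were 4 higher and 1 lower of 10 at 6 months, and 6 higher and 3 lower at 8 months against WT hearts of 6 months. Fibroblast markers fell in 4 and rose in 3 of 8 cases at 6 months, and summed to between 976 and 1038 CPM in ST hearts against 1209 to 1287 CPM in WT hearts. All 5 red cell markers rose at 6 months, to between 670 and 745 CPM in sum from 372 to 495 CPM. Smooth muscle and pericyte markers rose in 4 of 6 cases with 0 lower at 6 months (likewise at an unadjusted p under 0.05 and in DESeq2), among them Cnn1 (2.83), Tagln (1.37) and Acta2 (1.27), and summed to 207 to 285 CPM in WT hearts, 278 to 416 CPM in ST hearts and 277 to 541 CPM at 8 months. Endothelium markers were 1 higher and 2 lower of 6 at 6 months, and 4 higher and 0 lower at 8 months against WT hearts of 6 months (5 and 0 at an unadjusted p under 0.05, 4 and 0 in DESeq2). At 2 months 0 of the 6 were higher and 1 lower (likewise in DESeq2), Kdr (-0.57, adjusted p = 0.023). Macrophage and monocyte markers rose in 2 of 6 cases at 6 months, and 3 fell from 6 to 8 months. These are 33.3% and 50% called, near the shares over all genes. The mesothelium marker Msln had 1 and 1 counts in WT and 57 and 11 in ST hearts of 2 months, 22, 42 and 68 in WT and 2, 12 and 0 in ST hearts of 6 months, and 2 in each heart of 8 months. Upk3b, of the same list, was likewise higher in ST hearts at 2 months (adjusted p = 0.013, where DESeq2 called 1 of these 2 genes) and lower at 6 months (adjusted p = 0.0028), while Wt1 rose at 6 months (0.89). The part of these marker differences in the levels of the 9 genes was not tested.

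Genes with the most similar pattern were sought over the 9 libraries of 6 and 8 months, by the root mean square difference of log2 CPM after centring each gene on its mean. Fkbp5, whose own SD was 0.89, was nearest to Rapgef5 (0.159), Per2 (0.173) and Il2ra (0.174). Zbtb16 (own SD 1.03) was nearest to Rhobtb1 (0.149), Tent5b (0.201) and Fkbp5 (0.235). Sgk1 (own SD 0.86) was nearest to Tbc1d9 (0.0786), and Pck1 (own SD 2.44) to Thbs1 (0.310), Aurkb (0.517) and Fos (0.589). Klf9 was nearest to Kat6b (0.062), Tsc22d3 to Iqgap2 (0.0926), Nr3c1 to Cdkal1 (0.0438) and Nr3c2 to Numa1 (0.0628). The libraries share groups and tables, and the values are a description over 11793 genes (11794 for Pck1).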

How the data were processed

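Bulk RNA of rat heart was measured in 13 samples. The deposited values are expected counts per gene name, per the file headers one column per library, in 3 tables of 25600 names (2 months) and 38600 names (6 and 8 months), with 23018 in both. The sources used here do not name the counting tool, and the submitters' processing notes name the mouse builds GRCm38 and mm10, while the gene names are those of rat; no coordinates from the tables were used. All 13 sample columns were used.

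Values were rounded to integers. For each comparison only its own libraries entered edgeR 4.0.16 (R 4.3.3), with filterByExpr, TMM and its quasi-likelihood test (two-sided), Benjamini-Hochberg adjustment over all genes tested, threshold 0.05. Standard errors were approximated as |log2 fold change| over the root of F, which is poor near 0 counts. Alternatives were other size factors, library totals, no filter or at least 5 CPM, DESeq2 1.42.0, a replicate block, one fit over all groups and leaving out each library. The procedure was run on simulated counts with independent libraries and the same spread for every gene. Libraries that stand apart, as some do here, were not simulated, so that run does not measure error rates in these data. The 9 genes and the lists were chosen with earlier results of these data known. All 9 are named, with up to 4 genes of each list with the smallest p past the threshold in a comparison, and the 3 genes nearest in pattern (mean log2 CPM 1 or more, prior count 2); Per1, Per2, Nr1d1, Klf15, Sesn1, Edn1 and some repeats of named genes in other comparisons were added after their values were seen. Some genes that this rule gives are not reported here. 3 counts equal 0.266 to 0.639 CPM.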

Additional observations from a re-analysis of the deposited data

Results flagged for a closer look

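For 7 of the 9 genes the effect of ST against WT differed between 6 and 2 months, by edgeR's quasi-likelihood test of the difference itself (4 hearts of 2 months and 6 of 6 months, with month and table not separable). Over all 12658 genes tested, 22.2% passed (10.2% higher, 12% lower). The effect at 6 months minus that at 2 months, on the log2 scale, was -0.69 for Tsc22d3 (adjusted p = 0.013), -0.56 for Zbtb16 (adjusted p = 0.027), -1.03 for Klf9 (adjusted p = 0.0001), -0.63 for Nr3c1 (adjusted p = 0.0088), -0.89 for Nr3c2 (adjusted p = 0.0005), 1.44 for Sgk1 (adjusted p = 0.00036) and 5.52 for Pck1 (adjusted p = 0.0035). Tsc22d3 and Zbtb16 rose at 2 months (0.84 and 0.74) and did not pass at 6 months (0.16 and 0.19). Klf9, Nr3c1 and Nr3c2 had positive log2 fold changes that did not pass at 2 months and fell at 6 months. Sgk1 and Pck1 rose at 6 months. Leaving out a library ended some of these calls: Zbtb16 in 6 of the leave-outs (adjusted p up to 0.12), Tsc22d3 without WT replicate 2 (adjusted p = 0.058) or ST replicate 1 of 2 months (adjusted p = 0.053), and Pck1 without WT replicate 1 of 2 months (adjusted p = 0.13).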

How the results depend on the processing

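Of 579 values of single genes under the alternatives, 547 kept their direction and side of the threshold, 10 lost the threshold, 11 gained it and 11 changed sign. At 6 months the 3 higher and 3 lower calls among the 9 genes held in every alternative. The sign changes were of values that did not pass: Hsd11b1 at 6 months (-0.060 with library totals, -0.057 to 0.22 over leave-outs), at 8 against 6 months (0.046 with library totals, -0.097 to 0.045), at 8 months against WT hearts of 6 months (-0.015 with library totals, -0.067 to 0.21), at 2 months (-0.36 to 0.16) and in the difference between months (-0.12 to 0.41), and Tsc22d3 at 6 months (-0.0052 without ST replicate 2, up to 0.24). At 2 months the 9 genes gave 2 to 5 higher calls over leave-outs, and all genes 327 higher and 255 lower, which became 574 and 445 with no filter, 211 and 144 in DESeq2, 709 and 528 in one fit over all groups, and 157 to 1104 and 114 to 909 over leave-outs (fewest without WT replicate 1, most without ST replicate 2). Where a leave-out leaves 1 heart in a group, it is assumed to vary like the other group. Library totals moved the median of all genes at 6 months by -0.11 and gave 1731 higher and 3714 lower against 2643 and 2662, so that 31.8% of calls were higher against 49.8%; that share moved from 48.2% to 58.9% at 8 against 6 months, from 52.4% to 39.7% at 8 months against WT hearts, and from 46% to 34.7% for the difference between months, where Fkbp5 then passed (-0.36, adjusted p = 0.048). DESeq2 called 1624 genes higher at 8 against 6 months, against 2464. For the difference between months, leave-outs gave 1 to 2 higher and 3 to 5 lower among the 9 genes, and 705 to 1516 and 853 to 1681 among all genes. The causes were not tested.

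The main fits did not pair samples by replicate number. Same-numbered hearts of 6 months had correlations of 0.0297, 0.111 and 0.0039 in their deviations from the group means. At 8 against 6 months the values were 0.0546, 0.178 and 0.0378. Same-numbered correlations were thus positive but low, and whether the numbers stand for a pairing is not known. Of the comparisons with 3 hearts a group, that of 8 months against WT hearts had every sample correlate best with its own number, and the other two did not. At 2 months the same-numbered correlation was 0.0712, where 2 hearts a group deviate as mirror images. With the replicate block, 3 genes were higher and 0 lower at 2 months, 3 and 3 at 6 months, and 3 and 5 at 8 against 6 months, where Sgk1 (-0.29, adjusted p = 0.026) and Klf9 (0.20, adjusted p = 0.035) were added. All genes gave 350 higher and 286 lower with the block at 2 months. The depth limits Pck1, which at 2 months had a log2 fold change of 0.79 with no filter (adjusted p = 0.66).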

Other observations

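Of the genes that mineralocorticoids are known to induce, 6 of 10 tested rose and 2 fell in ST hearts of 6 months (6 and 1 in DESeq2). Over all genes 19.9% were higher and 20.1% lower. Lcn2 and Edn1 among them are also in the lists of genes that glucocorticoids induce and lower. The protease Adamts1 rose by 1.90 (SE 0.112, adjusted p = 1.5e-07) and the matricellular Ccn2 by 1.07, and the ubiquitin ligase Nedd4l fell by 0.68, on the log2 scale. At 8 against 6 months 5 fell and 2 rose (4 and 1 in DESeq2), with Adamts1 at -1.83. Of all genes 20.5% were lower and 19.1% higher there. The epithelial sodium channel subunits Scnn1b and Scnn1g had 0 counts in every group.

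Among genes of steroid synthesis, activation and transport, 5 of 13 could be tested. Cyp11a1, the side-chain cleavage enzyme that opens steroid synthesis, had 6.69, 6.05 and 6.54 CPM in WT and 14.9, 14.4 and 17.3 CPM in ST hearts of 6 months (1.28, SE 0.138, adjusted p = 2.3e-05), and 14.4, 15.6 and 19.96 CPM at 8 months. H6pd, which supplies the cofactor of Hsd11b1, was lower in ST hearts at 6 months (-0.24, adjusted p = 0.022), where DESeq2 called 0 genes of this list lower, and lower at 8 than at 6 months (-0.34, adjusted p = 0.0036). Cyp11b1, the last enzyme of corticosterone synthesis, had 0 counts in every group, and the adrenal cortex markers summed to at most 1.87 CPM in any library.

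Among genes of gluconeogenesis other than Pck1, the coactivator Ppargc1a rose by 1.31 at 2 months (adjusted p = 1.1e-05) and by 0.83 at 6 months (adjusted p = 8.9e-05). The glucose-6-phosphate transporter Slc37a4 (-0.66) and the transcription factor Foxo1 (-0.42) were lower in ST hearts of 6 months.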
